A study of Mus musculus with 54 samples.

Results

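Prolactin and STAT5 pathway genes were followed through a whole reproductive cycle of the mouse mammary gland. The members were Elf5, Stat5a, Stat5b, Socs2 and Cish, taken as every probe set (the group of short oligonucleotides that reads 1 transcript on the array) annotated to exactly 1 of these symbols. This gave 6 of the 12488 probe sets on the array, because Stat5a had 2, and all 6 passed the filter on low signals. The study compared 18 stages of development, with RNA from 1 inguinal gland of each of 3 mice per stage, so that 54 arrays were available. The inguinal lymph node had been removed. They comprised virgin glands (weeks 6, 10, 12), glands in gestation (days 1, 2, 3, 8.5, 12.5, 14.5, 17.5), lactating glands (days 1, 3, 7) and involuting glands (days 1, 2, 3, 4, 20). Mating took place at week 12, and involution was started by taking the pups away after 7 days of lactation. The strain and any genotype are not given in the sources used here, no transgene or drug is named, and every group is the same kind of gland at another stage. Values are MAS5 signals, which have no absolute unit.

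Prolactin from the pituitary binds its receptor on luminal epithelial cells and activates the kinase JAK2, which phosphorylates STAT5A and STAT5B. Both STAT5 proteins then enter the nucleus, bind DNA and switch on milk protein genes, and STAT5A is the form needed for alveolar development in the mouse. ELF5 is an ETS transcription factor of the secretory luminal lineage that is needed for alveolar cells to form. CISH and SOCS2 are SH2-domain inhibitors of cytokine signalling, and both are themselves induced by STAT5 in many cells.

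All arrays were scaled to the same level by the submitters, and the array medians lay between 31.75 and 44.55. A signal under 9.4 was set to 9.4 before log2 was taken. Only Stat5b fell under that floor, on 3 arrays. Arrays of 1 stage correlated at 0.875 to 0.975, and no pair of arrays was identical. The letters A, B and C of the labels were not taken to link mice across stages. The luminal markers Krt8, Krt18, Krt19, Cdh1, Epcam, Cldn3, Cldn4 and Cldn7 all passed the filter, while of the basal markers Krt5 and Krt14 were too dim to pass. The 3' over 5' signal of beta-actin is a sign of RNA quality. It averaged 3.75 ± 0.363 at virgin week 6, 2.76 ± 1.49 at week 10 and 1.99 ± 0.487 at week 12 (SD, n = 3 each). In lactation it averaged 1.60 ± 0.172 at day 1, 1.53 ± 0.0903 at day 3 and 1.82 ± 0.285 at day 7. In whole gland RNA, fewer cells of a type and less RNA per cell cannot be told apart.

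The 6 probe sets were tested in 14 comparisons of stages with limma, with all 54 arrays in 1 fit and p-values adjusted over the 8640 probe sets that passed the filter. A difference was called at an adjusted p under 0.05. Of the 84 member comparisons, 22 were called. Over the 18 stages together, all 6 were called by the F test, which called 88.1% of all probe sets. The largest F among the members was that of Elf5, which ranked 22 of 8640.

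The calls were spread unevenly over the cycle. In virgin week 12 against week 6, 1 of 6 was called, where 29.8% of all probe sets were. For pregnancy day 3 against virgin week 12 it was 1 of 6 beside 4.24%, and for pregnancy day 8.5 against day 3 it was 1 of 6 beside 17.9%. Pregnancy day 14.5 against day 8.5 gave 3 of 6, all higher, where 3.62% of all probe sets were called. The limma test called 0 of 6 for pregnancy day 17.5 against day 14.5 (0.417%), for lactation day 7 against day 1 (5.29%) and for involution day 4 against day 2 (6.3%), where 0, 0 and 2 had an unadjusted p under 0.05. At lactation day 1 against pregnancy day 17.5, 1 of 6 was called, lower, beside 23.3%. Involution day 1 against lactation day 7 gave 4 of 6, all lower, beside 25.4%. Involution day 2 against day 1 gave 1 of 6 beside 7.64%, and involution day 20 against day 4 gave 1 of 6 beside 15.5%. Over the longer steps, lactation day 7 against virgin week 12 gave 4 of 6, all higher, beside 51.6%, and involution day 4 against lactation day 7 gave 4 of 6, all lower, beside 44.4%. Involution day 20 against virgin week 12 gave 1 of 6 beside 2.64%. Comparisons that name the same stage share its 3 arrays, so their values are not independent.

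**Figure D1:**
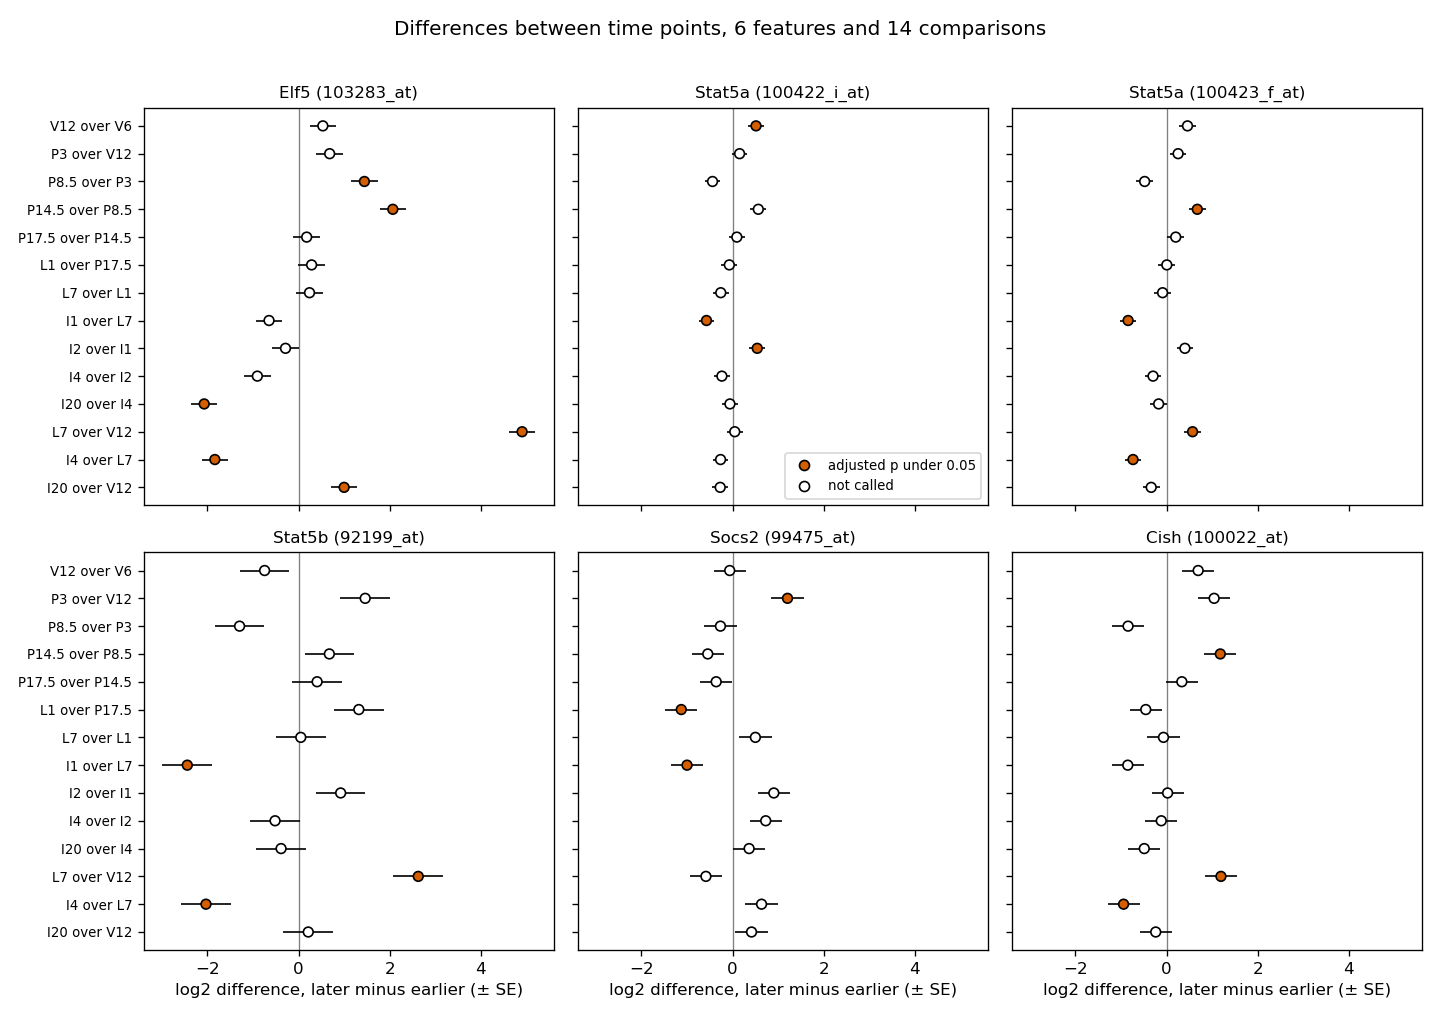
Log2 difference of the later minus the earlier stage for the 6 probe sets in 14 comparisons, with bars of 1 SE from the fit to 54 arrays and filled points where the adjusted p was under 0.05. Elf5 at lactation day 7 over virgin week 12 lies farthest right, and Stat5b has the widest bars.

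Elf5 had the widest range of the members. Its mean signal was 1772 at lactation day 7 and 41.1 at virgin week 6, a 43.1-fold range. The virgin glands, in the order of mice A, B and C, gave 45.7, 34.1 and 43.5, then 117, 86.4 and 57.1, then 58.9, 59.4 and 58.8 at weeks 6, 10 and 12. In pregnancy the same order gave 85.5, 95.8 and 219.6, then 145, 96.1 and 89.6, then 83, 62.9 and 163, then 232, 226 and 328 at days 1, 2, 3 and 8.5, and 667, 862 and 831, then 1265, 1096 and 916, then 1239, 1062 and 1402 at days 12.5, 14.5 and 17.5. All glands of days 12.5 to 17.5 lay above every virgin gland and every gland up to day 8.5.

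Lactating glands gave 1746, 990.2 and 1939, then 1557, 1337 and 1282, then 1896, 1679.5 and 1739 at days 1, 3 and 7. Involuting glands gave 993, 1072 and 1355, then 817, 816 and 1195, then 709, 852 and 819.5, then 353, 593 and 581, then 102, 107 and 152 at days 1, 2, 3, 4 and 20. The stage means of Elf5 thus stepped down over the days of involution, although the glands of days 1 and 2 overlapped, as did those of days 2 and 3. By day 20 the 3 glands lay below all glands of days 1 to 4.

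Elf5 rose in pregnancy. At day 8.5 against day 3 its log2 difference was 1.45 ± 0.29 (SE, adjusted p 0.00164), and the glands did not overlap. The step from day 8.5 to day 14.5 added 2.07 ± 0.29 (adjusted p 4.53e-06). No difference passed the test between day 14.5 and day 17.5 (0.18 ± 0.29) or between day 17.5 and lactation day 1 (0.29 ± 0.29). Against virgin week 12, lactation day 7 was 4.91 ± 0.29 higher (adjusted p 9.09e-18). Involution day 4 was lower than lactation day 7 by 1.84 ± 0.29 (adjusted p 1.75e-06), and day 20 fell by 2.07 ± 0.29 against day 4 (adjusted p 1.92e-06). These 5 calls held on leaving out any of the arrays compared. The first was lost when only the arrays of its own stages were fitted (adjusted p 0.0698). Involution day 1 against lactation day 7 was -0.65 ± 0.29 and missed the threshold (adjusted p 0.099). Involution day 2 against day 1 was -0.29 ± 0.29 (adjusted p 0.629) and day 4 against day 2 was -0.90 ± 0.29 (adjusted p 0.0523). Neither of these steps was called. Involution day 20 was above virgin week 12 by 1.00 ± 0.29 (adjusted p 0.0494), but leaving out any 1 of the 6 arrays ended that call (adjusted p 0.0655 to 0.156).

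The stages, by mean log2 signal of Elf5 from low to high, were virgin week 6, virgin week 12, virgin week 10, pregnancy day 3, pregnancy day 2, involution day 20, pregnancy day 1, pregnancy day 8.5, involution day 4, pregnancy day 12.5, involution day 3, involution day 2, pregnancy day 14.5, involution day 1, pregnancy day 17.5, lactation day 3, lactation day 1, lactation day 7. Of the 17 neighbouring pairs in this order, 4 did not overlap in their glands: week 12 over week 6, pregnancy day 8.5 over day 1, involution day 4 over pregnancy day 8.5, and pregnancy day 12.5 over involution day 4. The other pairs overlapped.

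Stat5a, the STAT5 form required for alveolar growth, was measured by 2 probe sets. The first, named with an i suffix, had the narrowest range of all the members. Virgin glands gave 405, 384 and 281, then 402, 387 and 581, then 464, 453 and 607 at weeks 6, 10 and 12, and pregnant glands gave 458, 524 and 515, then 582, 681 and 677, then 564, 587 and 532, then 377, 531 and 353 at days 1, 2, 3 and 8.5 and 494, 609 and 462, then 662, 569 and 609, then 679, 591 and 696 at days 12.5, 14.5 and 17.5. Lactating glands gave 701, 512 and 672, then 554, 589.7 and 629.6, then 595, 419.6 and 566 at days 1, 3 and 7, and involuting glands gave 346, 342 and 364, then 538, 565 and 438, then 396, 477 and 516, then 395, 484 and 428, then 351, 494 and 419.8 at days 1, 2, 3, 4 and 20. The lowest stage by mean was involution day 1, at 351, and the highest was pregnancy day 17.5, at 655, a 1.87-fold range. By mean log2 signal from low to high the stages were involution day 1, virgin week 6, pregnancy day 8.5, involution day 20, involution day 4, virgin week 10, involution day 3, pregnancy day 1, virgin week 12, involution day 2, pregnancy day 12.5, lactation day 7, pregnancy day 3, lactation day 3, pregnancy day 14.5, lactation day 1, pregnancy day 2, pregnancy day 17.5.

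The second Stat5a probe set, named with an f suffix, averaged 434 at lactation day 1 and 199.5 at virgin week 6, a 2.17-fold range. In the naming of the array maker, the f suffix marks probes that can match several members of a sequence family, and Stat5a and Stat5b are near-identical paralogs on the same chromosome, so signal of the pair may not be fully separate. No probe sequences were available, so neither Stat5a probe set was checked for matches to Stat5b. Virgin glands gave 224, 205 and 169.6, then 238, 228 and 295, then 275, 239 and 308 at weeks 6, 10 and 12, and pregnant glands gave 255, 308 and 305, then 316, 396 and 348, then 356, 316 and 306, then 211, 256 and 235 at days 1, 2, 3 and 8.5 and 244, 343 and 259, then 437, 343 and 344, then 419.7, 510.4 and 367 at days 12.5, 14.5 and 17.5. Lactating glands gave 398, 516 and 388, then 349.6, 453 and 426 at days 1 and 3, and involuting glands gave 198, 211 and 276, then 328, 275 and 296, then 203, 309.9 and 294, then 189.5, 294 and 259, then 212, 253 and 188 at days 1, 2, 3, 4 and 20. No neighbouring pair of stages in the order of means was free of overlap on either probe set. At lactation day 7 it gave 475, 343 and 408, against 275, 239 and 308 at virgin week 12. Both probe sets correlated at 0.91 over the 18 stage means, but only the second probe set was called in this comparison, and the difference between them was not tested.

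Their tests were as follows. Lactation day 7 against virgin week 12 gave 0.57 ± 0.18 for the second probe set (SE, adjusted p 0.00865) and 0.05 ± 0.17 for the first probe set (adjusted p 0.83, 95% interval -0.30 to 0.40), so that only the second was called. That call was lost without virgin week 12 replicate B (adjusted p 0.0535) or lactation day 7 replicate A (0.0623). Involution day 1 was lower than lactation day 7 on both, by 0.57 ± 0.17 (adjusted p 0.0113) and 0.84 ± 0.18 (adjusted p 0.000483) for the first and the second probe set. The call of the first probe set was lost without lactation day 7 replicate A (0.0708) or C (0.0547). At involution day 4 against lactation day 7, the second probe set was -0.74 ± 0.18 (adjusted p 0.00112) and the first probe set was -0.26 ± 0.17 and not called (adjusted p 0.218). Pregnancy day 14.5 exceeded day 8.5 by 0.68 ± 0.18 on the second probe set (adjusted p 0.0282), a call lost without pregnancy day 8.5 replicate A or C or day 14.5 replicate A or C (adjusted p 0.0533 to 0.225). The first probe set gave 0.57 ± 0.17 in that step and just missed the threshold (adjusted p 0.0549). The remaining calls were of the first probe set, at virgin week 12 over week 6 (0.52 ± 0.17, adjusted p 0.022) and involution day 2 over day 1 (0.54 ± 0.17, adjusted p 0.0436). In the same steps the second probe set gave 0.46 ± 0.18 (adjusted p 0.0528) and 0.40 ± 0.18 (adjusted p 0.193), neither called. The virgin call was lost without week 6 replicate C (0.17) or week 12 replicate C (0.132), after median scaling (0.189), and with the beta-actin ratio in the fit (0.301), a ratio that differed between these ages as given above. The involution call was lost without any of 5 of the 6 arrays (0.0904 to 0.195).

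Stat5b, the other STAT5 form, had signals near the floor on many arrays. Virgin glands gave 29.1, 33.4 and 31.3, then 27.9, 23.5 and 90.7, then 26.5, 26 and 7.3 at weeks 6, 10 and 12. In pregnancy the values were 17.1, 22 and 16.6, then 13, 6.7 and 21.6, then 54.6, 43 and 57.8, then 22.3, 33.9 and 12.2 at days 1, 2, 3 and 8.5, and 26.3, 26.8 and 29.9, then 23.2, 43.5 and 37.3, then 58.9, 37.8 and 39.5 at days 12.5, 14.5 and 17.5. Up to the end of pregnancy the highest gland was virgin week 10 replicate C, at 90.7.

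Lactating glands gave 118, 110.0 and 106, then 196, 140.2 and 131, then 84.6, 135 and 134 at days 1, 3 and 7. Involuting glands gave 11.4, 13.3 and 63, then 59.3, 27.2 and 40.5, then 38.8, 64 and 75.8, then 58.7, 7.5 and 40.6, then 9.6, 35.2 and 29.9 at days 1, 2, 3, 4 and 20. The lactating glands lay above all glands of all other stages, except that lactation day 7 replicate A, at 84.6, lay below that virgin gland. The stages by mean log2 signal from low to high were pregnancy day 2, pregnancy day 1, virgin week 12, pregnancy day 8.5, involution day 1, involution day 20, pregnancy day 12.5, involution day 4, virgin week 6, pregnancy day 14.5, virgin week 10, involution day 2, pregnancy day 17.5, pregnancy day 3, involution day 3, lactation day 1, lactation day 7, lactation day 3. Only the gap between involution day 3 and lactation day 1 was free of overlap among the 17 neighbouring pairs.

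Stat5b at lactation day 7 exceeded virgin week 12 by 2.63 ± 0.54 (SE, adjusted p 9.46e-05). Virgin week 12 replicate C lay under the floor, at 7.3. The difference ran from 2.13 to 2.88 over other settings and on leaving out 1 array. Stat5b was lower at involution day 1 than at lactation day 7 by 2.44 ± 0.54 (adjusted p 0.000648). Both calls held on leaving out any 1 array, but without involution day 1 replicate C, at 63 the highest of its stage, the second difference was -3.23, and with the floor at the 40th percentile it was -1.85. The second call was lost when only the arrays of its stages were fitted (adjusted p 0.0537). Involution day 4 was lower than lactation day 7 by 2.03 ± 0.54 (adjusted p 0.00231). Without involution day 4 replicate B, which lay under the floor at 7.5, the difference was -1.24 (adjusted p 0.072). Lactation day 1 against pregnancy day 17.5 was 1.32 ± 0.54 and missed the threshold (adjusted p 0.0716), although the glands of the stages did not overlap.

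Socs2, a SOCS-box inhibitor of growth hormone and prolactin signalling, was high in early pregnancy and low in lactation and early involution. Virgin glands gave 198, 109 and 113, then 125, 91.3 and 208, then 126, 124 and 136 at weeks 6, 10 and 12. Pregnant glands gave 124, 279 and 406, then 282, 208 and 232, then 244, 331 and 326, then 256, 309 and 192 at days 1, 2, 3 and 8.5, and 248, 261 and 194, then 167, 154 and 191, then 88.2, 115 and 229 at days 12.5, 14.5 and 17.5. The highest mean, 300.4, was at pregnancy day 3.

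Lactating glands gave 50, 62.9 and 71.4, then 50.5, 79.7 and 74.1, then 101, 59.9 and 105 at days 1, 3 and 7. Involuting glands gave 42.4, 48.5 and 38.9, then 82.3, 127 and 50.3, then 75.1, 79 and 90.5, then 82.3, 230.5 and 126, then 186, 209 and 132 at days 1, 2, 3, 4 and 20. The lowest mean was 43.3 at involution day 1, a 6.94-fold range, and its 3 glands lay below every gland of every other stage. By mean log2 signal from low to high the stages were involution day 1, lactation day 1, lactation day 3, involution day 2, involution day 3, lactation day 7, virgin week 12, pregnancy day 17.5, virgin week 10, involution day 4, virgin week 6, pregnancy day 14.5, involution day 20, pregnancy day 12.5, pregnancy day 2, pregnancy day 1, pregnancy day 8.5, pregnancy day 3. In this order 2 of the 17 neighbouring pairs did not overlap, lactation day 1 over involution day 1 and virgin week 12 over lactation day 7.

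Pregnancy day 3 exceeded virgin week 12 by 1.21 ± 0.36 (SE, adjusted p 0.041). The call was lost without any of 5 of the 6 arrays, the exception being pregnancy day 3 replicate A (adjusted p 0.0963 to 0.152 otherwise). Median scaling (adjusted p 0.062) and no filter (0.06) also ended it. Lactation day 1 was lower than pregnancy day 17.5 by 1.12 ± 0.36 (adjusted p 0.0184). It was lost without pregnancy day 17.5 replicate C (0.182), lactation day 1 replicate A (0.0702) or replicate B (0.0521). Array quality weights (adjusted p 0.0758) and a fit to only the arrays compared (0.101) also ended that call. Involution day 1 was lower than lactation day 7 by 1.00 ± 0.36 (adjusted p 0.0331), a call lost without lactation day 7 replicate A (0.113) or C (0.126) or involution day 1 replicate A (0.0849) or C (0.0944). This call was also lost when only the arrays compared were fitted (adjusted p 0.0564). Lactation day 7 against virgin week 12 was -0.58 ± 0.36 and was not called (adjusted p 0.168).

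Cish, the founding member of the SOCS family, had its lowest mean at virgin week 6, 49.1. Virgin glands gave 52.5, 59.3 and 35.5, then 55.4, 37.4 and 152, then 77.8, 71.6 and 84 at weeks 6, 10 and 12. Pregnant glands gave 96, 82.1 and 50, then 157, 92.1 and 124, then 175, 186 and 126, then 57.9, 95.4 and 128 at days 1, 2, 3 and 8.5, and 131, 156 and 119.9, then 213, 203 and 191, then 248, 255 and 263 at days 12.5, 14.5 and 17.5. The 3 glands of pregnancy day 17.5 lay close together, and the mean, 255.2, was the highest.

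Lactating glands gave 132, 298 and 164, then 174, 182 and 217, then 349.7, 108 and 148 at days 1, 3 and 7. Involuting glands gave 77.6, 121 and 102, then 91.8, 101 and 108, then 89.2, 89.5 and 154, then 82.3, 102 and 93.6, then 70.1, 67.4 and 60.5 at days 1, 2, 3, 4 and 20. Lactation day 7 replicate A, at 349.7, was the highest gland of all, and the other 2 glands of that stage lay below all 3 of pregnancy day 14.5. By mean log2 signal from low to high came virgin week 6, involution day 20, virgin week 10, pregnancy day 1, virgin week 12, pregnancy day 8.5, involution day 4, involution day 1, involution day 2, involution day 3, pregnancy day 2, pregnancy day 12.5, pregnancy day 3, lactation day 7, lactation day 1, lactation day 3, pregnancy day 14.5, pregnancy day 17.5. Between neighbours, only involution day 20 over virgin week 6 and pregnancy day 17.5 over day 14.5 were free of overlap.

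Cish at lactation day 7 exceeded virgin week 12 by 1.19 ± 0.35 (SE, adjusted p 0.00439), but without lactation day 7 replicate A the difference was 0.71 (adjusted p 0.105). Pregnancy day 14.5 exceeded day 8.5 by 1.18 ± 0.35 (adjusted p 0.0479), a call lost on leaving out any of 5 of the 6 arrays (adjusted p 0.0531 to 0.302) and under 7 of 11 other settings. Involution day 4 was lower than lactation day 7 by 0.94 ± 0.35 (adjusted p 0.0266). Without lactation day 7 replicate A this was -0.45 (0.328), and without involution day 4 replicate A or C it was not called either (0.083 and 0.0538).

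**Figure D2:**
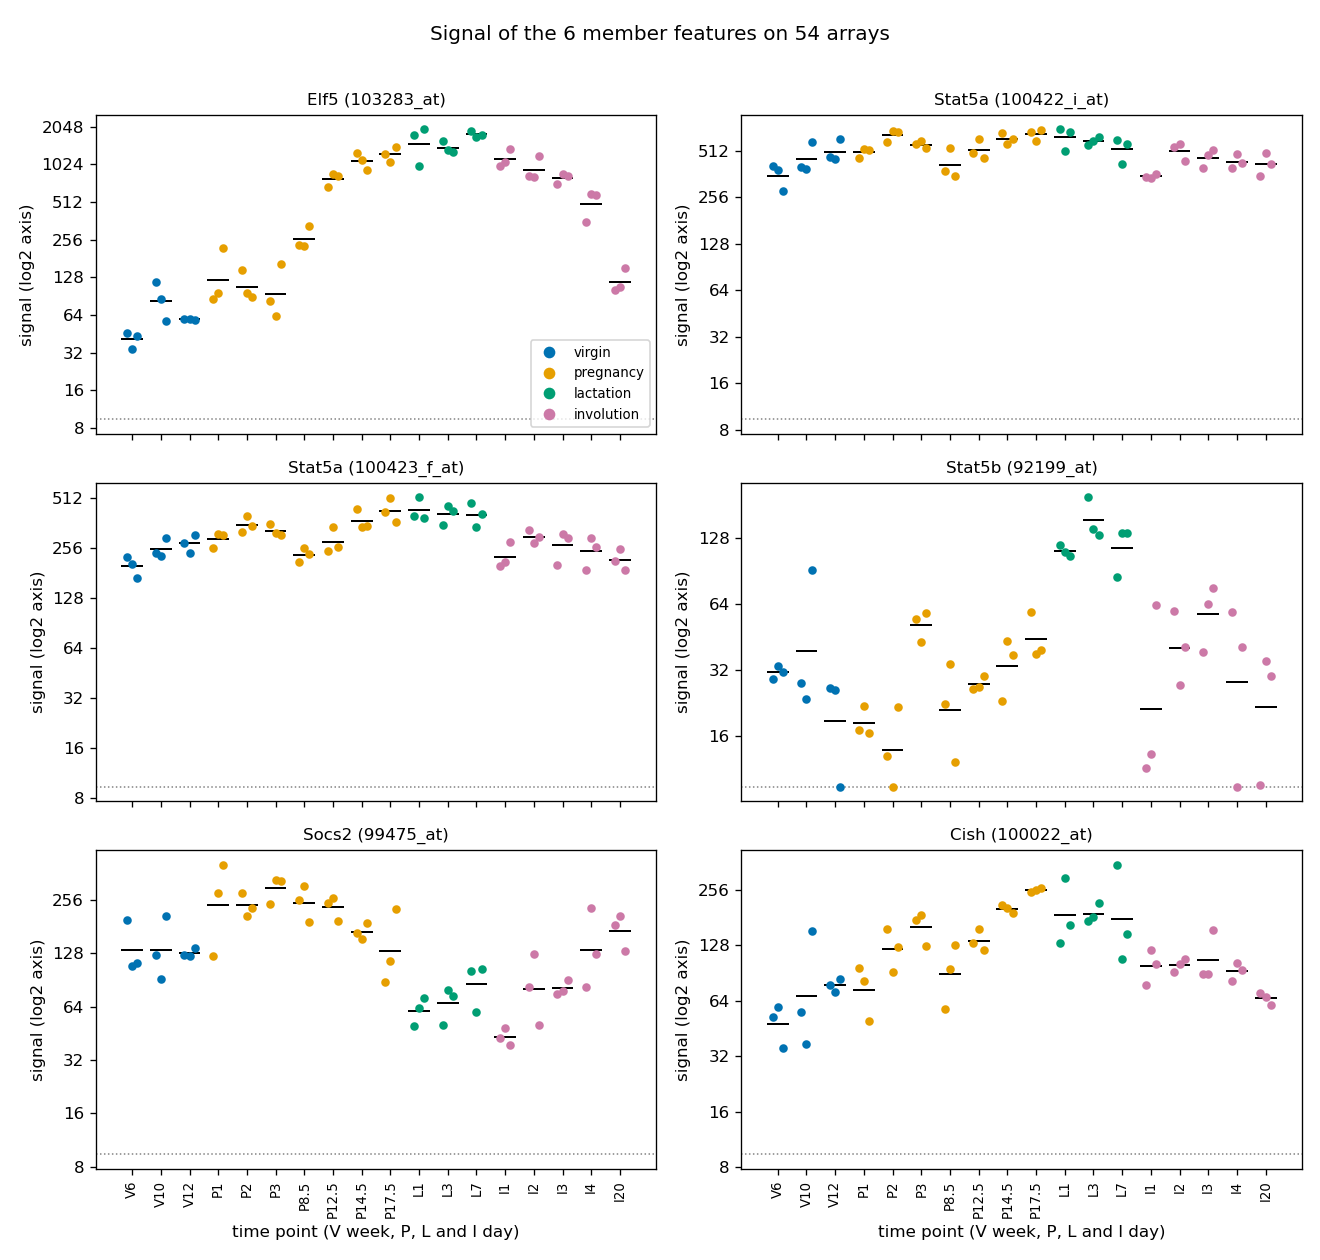
Signal on a log2 axis for each of the 54 arrays (points, mice A, B and C from left to right) with the mean of log2 as a bar, over 18 stages, where V is virgin week and P, L and I are days of pregnancy, lactation and involution. The dotted line is the floor of 9.4. Elf5 averaged 1772 at L7 and 41.1 at V6, Stat5b stood out in lactation, and Socs2 was lowest at I1.

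Cish is a classic direct target of STAT5. The RefSeq windows at the starts of Cish and of the milk protein gene Csn2, another STAT5 target, are shown because both hold the core motif of STAT5. STAT5 dimers bind TTCNNNGAA, a palindrome, so both strands are read at once, and in the windows below it is in capitals. The Cish window is chr9:107296409-107296708, plus strand, and the Csn2 window is chr5:87699376-87699675, minus strand. Each window runs from 250 bases before to 50 bases after the annotated start, on build GRCm38.p6, 5' to 3' on the gene's own strand.
Cish: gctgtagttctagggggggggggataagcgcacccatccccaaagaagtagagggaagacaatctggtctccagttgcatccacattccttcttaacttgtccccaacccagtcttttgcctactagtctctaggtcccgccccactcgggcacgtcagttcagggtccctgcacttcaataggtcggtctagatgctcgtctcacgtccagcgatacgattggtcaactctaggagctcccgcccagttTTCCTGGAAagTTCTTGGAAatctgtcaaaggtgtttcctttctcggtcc
Csn2: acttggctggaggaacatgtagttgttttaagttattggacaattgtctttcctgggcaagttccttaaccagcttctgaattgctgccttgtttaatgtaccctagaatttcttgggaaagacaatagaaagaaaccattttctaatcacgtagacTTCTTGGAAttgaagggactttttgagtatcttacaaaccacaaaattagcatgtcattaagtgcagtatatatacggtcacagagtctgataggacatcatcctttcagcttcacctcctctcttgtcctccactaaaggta
Cish had 2 matches, TTCCTGGAA and TTCTTGGAA, whose first bases are at positions 251 and 262 of the window. They lie at chr9:107296659-107296667 and chr9:107296670-107296678. Csn2, which encodes beta-casein, had 1 match, TTCTTGGAA, at position 158. Of 32851 windows in the table, 8.3% held at least 1 match and 0.457% held 2 or more. The Elf5, Stat5a and Stat5b windows, 2 for each gene, held none, and Socs2 is named only. Of the 6 milk protein genes with a window, 4 had a match, and Wap and Lalba had none. A window of Bcl6, a gene that STAT5 represses, held 3. A window is short, so a match or its lack says only which letters are there.

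Elf5 lies on chromosome 2 (103412098-103450989), Cish on chromosome 9 (107296659-107302784) and Socs2 on chromosome 10 (95383903-95417321), in GRCm38.p6. Stat5b (chromosome 11, 100780731-100859004, minus strand) and Stat5a (100859351-100885169, plus strand) are neighbours that run away from each other, with 346 bases between them. Stat5b had its highest mean at lactation day 3. Stat5a was highest at pregnancy day 17.5 on the first probe set and at lactation day 1 on the second, and between these stages neither was called different (adjusted p 0.807 and 0.987).

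To compare genes without the scaling of arrays, the log2 ratio of one probe set to another was taken within each array and its change between phases was tested by exact permutation over arrays (two-sided, 9 tests, adjusted over the 9). Such a ratio has no meaning as a level, because probe sets differ in brightness, and only its change is read. The arrays of a phase come from 3 or 4 stages and were treated as exchangeable. The mean beta-actin ratio was higher at each virgin stage than at any lactation stage, as given above. The part of that difference in the ratio changes was not tested. With stage means in place of arrays, 3 against 3 or 4 against 3, the smallest p is 0.1 or 0.0571 and no test can pass 0.05.

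Stat5a minus Stat5b averaged 2.202 ± 0.443 in lactation (SD, n = 9) and 3.925 ± 0.9195 in virgin glands (n = 9), a change of -1.72 (exact permutation, adjusted p 0.000148). In involution days 1 to 4 it averaged 3.665 ± 1.008 (n = 12) against 2.202 ± 0.443 in lactation, a change of 1.46 (exact permutation, adjusted p 0.000148). Stat5b rose relative to Stat5a in lactation and fell relative to it afterwards. Its probe set was often near the floor outside lactation.

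Socs2 minus Cish averaged -1.39 ± 0.527 in lactation (SD, n = 9) and 1.06 ± 0.486 in virgin glands (n = 9). The change of -2.45 is a 5.48-fold shift, and the arrays of the phases did not overlap (exact permutation, adjusted p 0.000123, from the smallest p these 18 arrays allow). In involution days 1 to 4 the ratio averaged -0.342 ± 0.775 (n = 12), against -1.39 ± 0.527 in lactation, a change of 1.05 (exact permutation, adjusted p 0.00235). At involution day 1 it was -1.19 ± 0.28 on average, and at day 20 it was 1.39 ± 0.256 (SD, n = 3).

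**Figure D3:**
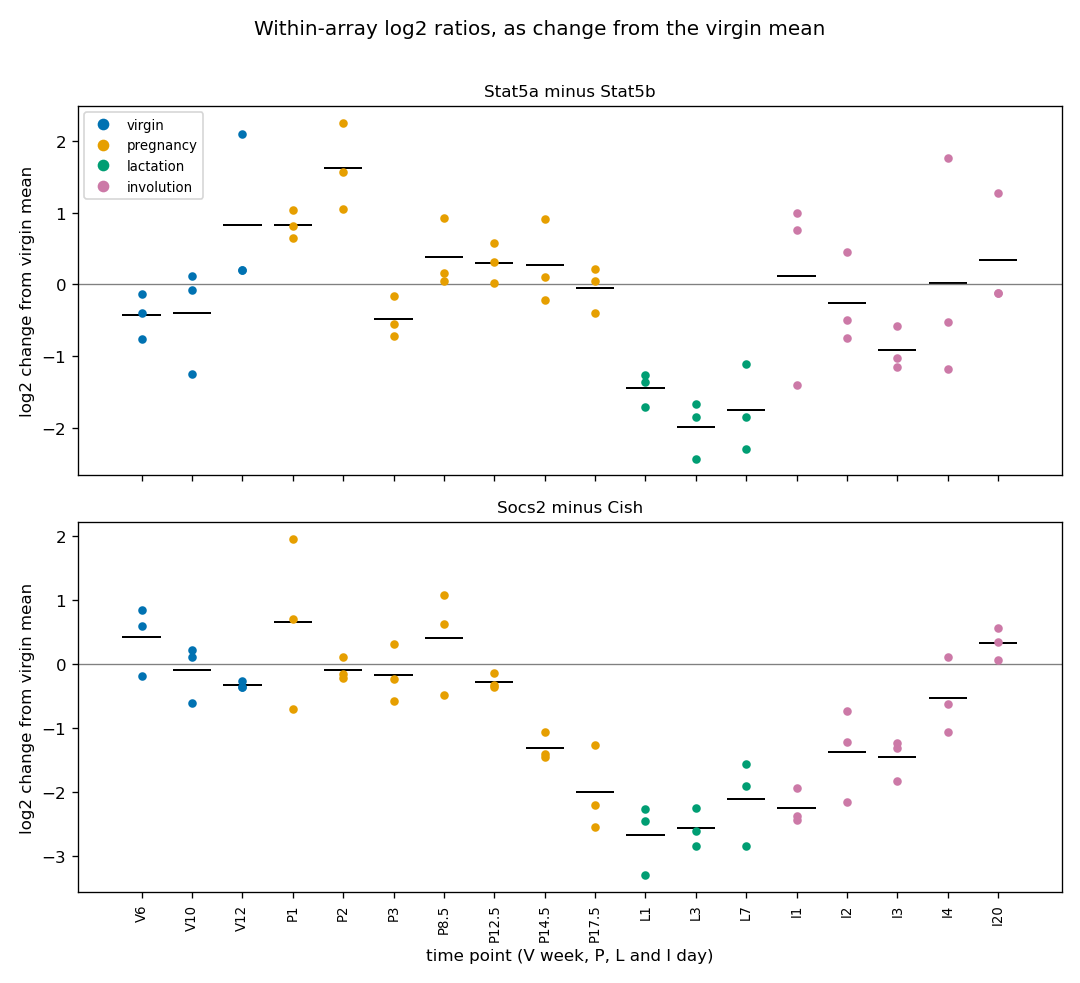
Log2 ratios of Stat5a (first probe set) to Stat5b and of Socs2 to Cish within each of the 54 arrays (points), as change from the virgin mean, with the stage mean as a bar, over 18 stages. Both ratios have their lowest stage mean in lactation, Stat5a to Stat5b at day 3 and Socs2 to Cish at day 1.

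Each member was also set against the mean of the 8 luminal markers in the same array. Elf5 minus the markers changed by 4.25 in lactation over virgin glands, 2.90 ± 0.322 against -1.345 ± 0.8323 (SD, n = 9 each, exact permutation, adjusted p 0.000123), with no overlap. Stat5b changed by 1.67, -0.718 ± 0.324 against -2.39 ± 1.07 (adjusted p 0.000123, exact permutation), with no overlap. Cish changed by 1.07, -0.159 ± 0.664 against -1.23 ± 0.374 (adjusted p 0.000476, exact permutation). Socs2 changed by -1.38, -1.55 ± 0.553 against -0.168 ± 0.581 (adjusted p 0.0003085, exact permutation). Stat5a on the first probe set was not shown to change, -0.05 (adjusted p 0.745, exact permutation), with 1.48 ± 0.246 in lactation and 1.53 ± 0.381 in virgin glands. With the second probe set it was 0.32 (adjusted p 0.104, exact permutation).

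The luminal markers themselves also changed, and not together. At lactation day 7 against virgin week 12, 2 of 8 were called higher and 3 lower, beside 51.6% of all probe sets called. The sum of the 8 ran from 1915 to 3045 over 9 lactating glands (median 2127), 3861 to 6515 over the 12 glands of involution days 1 to 4 (median 5176) and 1274 to 4072 over 9 virgin glands (median 1451). The mean log2 of the markers was higher at involution day 1, 8.88 ± 0.193, than at lactation day 7, 7.58 ± 0.116 (SD, n = 3). Among the 8 markers, 5 were called higher there, beside 25.4% of all probe sets called. Of the 8 basal and myoepithelial markers 5 were measured, and they summed to 1324 to 3416 in lactation (median 1925) and 939.8 to 1560 in virgin glands (median 1169), with 2 of 5 called higher and 0 lower at lactation day 7 against virgin week 12. The 6 measured adipocyte markers of 8 summed to 1037 to 2763 in lactation and 7051 to 11270 in virgin glands, and the 5 macrophage markers to 281 to 519 in lactation and 1821 to 2551 in virgin glands. The 5 fibroblast markers summed to 1444 to 3749 in lactation and 10010 to 18856 in virgin glands, and the 6 endothelial ones to 352 to 439 in lactation and 713 to 1106 in virgin glands. The 7 measured lymphocyte markers summed to 84.5 to 183 in lactation and 176 to 596 in virgin glands. At involution day 4 against lactation day 7, where 4 of the 6 member probe sets were called lower, 5 macrophage markers (median log2 2.99), 5 of 5 fibroblast markers (2.60), 5 of 6 adipocyte markers (2.19) and 5 of 8 luminal markers (1.32) were called higher. Of the endothelial markers 4 were higher and 1 lower of 6, of the basal markers 0 were higher and 2 lower of 5, and of the lymphocyte markers 0 of 7 were called. These counts of members and markers at involution day 4 stand beside 44.4% of all probe sets called. The macrophage markers summed to 2985 to 3475 at involution day 4 and 281 to 372 at lactation day 7, the fibroblast markers to 6081 to 8507 at involution day 4 and 1444 to 1916 at lactation day 7, and the adipocyte markers to 4487 to 5197 at involution day 4 and 1042 to 1337 at lactation day 7. The part of these other cell types in the differences of the members, or of the pathway genes given below, was not tested.

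**Figure D4:**
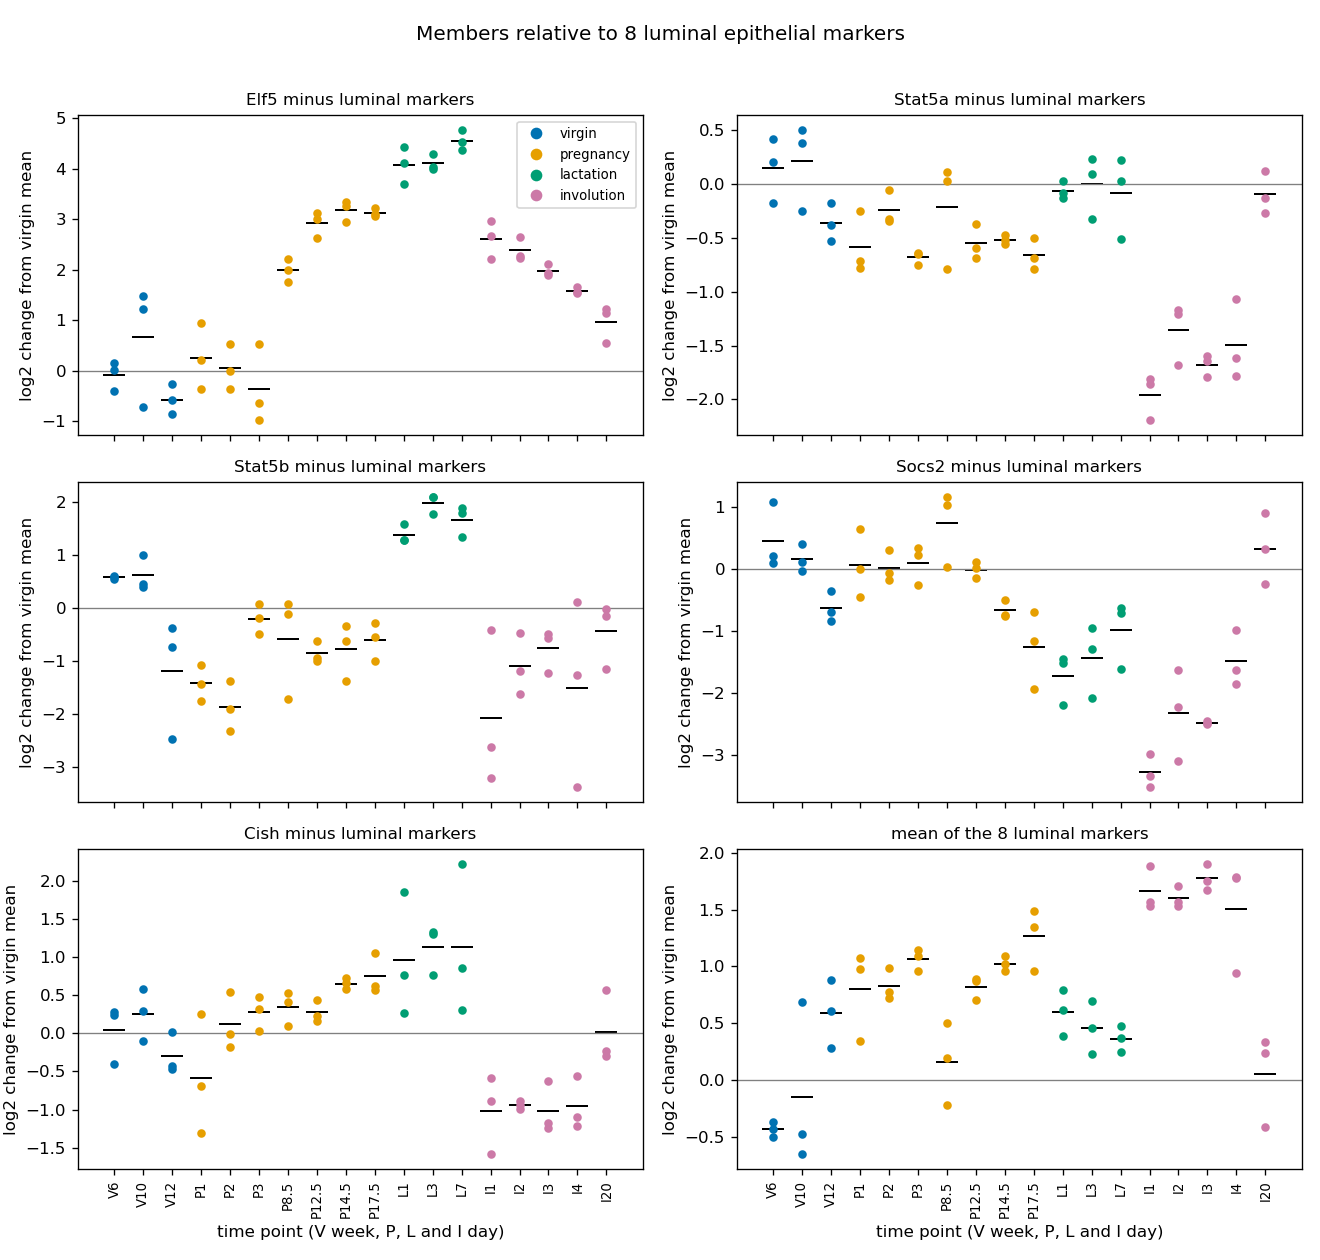
Log2 of each member minus the mean log2 of 8 luminal markers within each array (points), as change from the virgin mean, with the stage mean as a bar, and the markers themselves in the last panel. Elf5 averaged 4.25 above the virgin mean in lactation, while the marker mean is highest in involution days 1 to 4.

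The other genes of the pathway were read from lists of receptors, kinases, inhibitors, other STATs and partner factors, milk protein genes and further STAT5 targets. Of the receptors and ligands, 6 of 10 were measured, since Erbb4 and Csf2rb were too dim and Prlr and Il2rg are not analysed here. The counts below stand beside 51.6% of all probe sets called at lactation day 7 against virgin week 12, 25.4% at involution day 1 against lactation day 7 and 44.4% at involution day 4 against lactation day 7. At lactation day 7 against virgin week 12, 0 of 6 rose and 1 fell, with a median log2 of -0.63 against -0.01 over all 8640 probe sets. Ghr, the growth hormone receptor, which also acts through JAK2 and STAT5, gave 107, 94.5 and 68.4 at lactation day 7 and 796, 681 and 779.6 at virgin week 12, a difference of -3.09 ± 0.24 (adjusted p 1.87e-14). At involution day 4 against lactation day 7 it was the 1 that rose, by 1.87 ± 0.24 (adjusted p 1.67e-08), and 0 fell.

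Among kinases, phosphatases and adaptors, 11 of 12 were measured. Jak2, the kinase at the prolactin receptor, gave 58.2, 52.7 and 60.5 at lactation day 7 and 64.9, 67.5 and 83.1 at virgin week 12, and was not called (-0.32 ± 0.25, adjusted p 0.274). In that comparison 2 of 11 rose and 3 fell, with a median of -0.32, a share of calls near the 51.6% of all probe sets called. The Src kinase rose by 3.28 ± 0.39 (adjusted p 2.38e-09), but its virgin week 12 signals were 10.7, 10.3 and 7.0, under or just above the floor, and with the floor at the 40th percentile the difference was 2.11. In the same comparison the adaptors Shc1 and Gab1 were -1.18 ± 0.21 (adjusted p 1.21e-05) and -1.04 ± 0.20 (adjusted p 2.77e-05). Tyk2 was 1.13 ± 0.49 (adjusted p 0.0497), a call lost without any of 5 of the 6 arrays (adjusted p up to 0.226). At involution day 1 against lactation day 7, Gab1 rose by 1.71 ± 0.20 (adjusted p 5.65e-09) and Ptpn2, a phosphatase of JAK and STAT proteins, by 1.68 ± 0.33 (adjusted p 0.000104), while Src was -1.61 ± 0.39 (adjusted p 0.00151).

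The inhibitor list had 8 of 12 measured, and its median was 0.32 at lactation day 7 against virgin week 12, where 2 of 8 rose and 3 fell, beside 51.6% of all probe sets called. Socs3, which blocks cytokine receptors that signal through STAT3, gave 5.4, 2.9 and 3.9 at lactation day 7 and 36.2, 49.3 and 65.2 at virgin week 12 (-2.38 ± 0.33, adjusted p 1.08e-07). All 3 lactation day 7 arrays were under the floor for Socs3, so the sizes of its differences from that stage depend on the floor, although its calls held in every alternative. Socs3 had 2 probe sets that passed the filter, and the brighter one, given here, carries the f suffix. Socs5 rose by 1.22 ± 0.30 (adjusted p 0.000778) and the caveolin gene Cav1 was -2.26 ± 0.24 (adjusted p 2.63e-10). At involution day 1 against lactation day 7, Socs3 rose by 3.01 ± 0.33 (adjusted p 1.97e-09) and Socs1 fell (-1.93 ± 0.45, adjusted p 0.00098), in the same step in which Socs2 fell. With the floor at the 40th percentile the Socs1 difference was -1.14. Socs3 was 60.4, 96.7 and 73.8 at involution day 1. At involution day 4 Socs3 was above lactation day 7 by 3.47 ± 0.33 (adjusted p 2.12e-11).

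Other STATs and partner factors were measured for 13 of 16 genes, with 1 higher and 3 lower of 13 at lactation day 7 against virgin week 12 (median -0.12), beside 51.6% of all probe sets called. Id2, a helix-loop-helix inhibitor needed for alveolar growth, rose by 1.77 ± 0.39 (adjusted p 0.000201), and by 2.43 without lactation day 7 replicate A. The coactivators Crebbp (-2.15 ± 0.55, adjusted p 0.00126) and Ncoa1 (-1.06 ± 0.39, adjusted p 0.0214) were lower. The Crebbp call was lost without lactation day 7 replicate C (0.0506), and the Ncoa1 call without any of 3 of the 6 arrays (adjusted p up to 0.459). Stat6, which carries interleukin 4 signals, was -0.71 ± 0.22 (adjusted p 0.00773), a call lost without lactation day 7 replicate C (adjusted p 0.0921). At involution day 1 against lactation day 7, 3 rose and 1 fell. They were Cebpd, a STAT3 target of involution, by 2.54 ± 0.35 (adjusted p 3.41e-07), Stat3 by 0.97 ± 0.24 (adjusted p 0.00222) and Ncoa1 by 1.09 ± 0.39 (adjusted p 0.0332), the last lost without any of 4 of the 6 arrays (adjusted p up to 0.518). Without lactation day 7 replicate A, Cebpd was 3.35 higher. The glucocorticoid receptor Nr3c1 was -1.73 ± 0.43 (adjusted p 0.00217), and -1.04 with the floor at the 40th percentile.

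Milk protein genes, the best known STAT5 targets, were measured for 8 of 8, and all 8 rose at lactation day 7 against virgin week 12, with a median log2 difference of 6.30 against -0.01 over all probe sets. Csn2 gave 9447, 9007 and 8765 at lactation day 7 and 91, 125 and 120.5 at virgin week 12 (6.35 ± 0.67, adjusted p 1.56e-10). Wap, the whey acidic protein gene, gave 15868, 15028 and 15270.2 at lactation day 7 and 221, 238 and 282 at virgin week 12 (5.97 ± 0.78, adjusted p 2.14e-08). At pregnancy day 14.5 against day 8.5 Wap rose by 7.61 ± 0.78 (adjusted p 2.03e-09), and 4 of 8 rose, beside 3.62% of all probe sets called. Elf5, Cish and Stat5a on the second probe set were also called in that step. The Cish and Stat5a calls were lost on leaving out some of the arrays, as given above. A link between the members and the milk protein genes was not tested. At involution day 4 against lactation day 7, 5 of 8 fell (median -1.63): Glycam1 at -6.51 ± 0.97 (adjusted p 6.14e-07), Lalba at -3.86 ± 0.72 (adjusted p 2.48e-05), Csn1s2b at -3.37 ± 0.44 (adjusted p 4.77e-08), and Csn1s2a and Csn3. The calls of Csn1s2a and Csn3 were lost after quantile normalization (adjusted p 0.333 and 0.816) and on leaving out some of the arrays. Csn2 (-1.34 ± 0.67, adjusted p 0.102) and Wap (-1.49 ± 0.78, adjusted p 0.116) were not called. At involution day 1, 0 of 8 rose or fell at adjusted p under 0.05 in the limma fit, and 1 was lower at an unadjusted p under 0.05 (median -0.88), in the step in which Stat5b, both Stat5a probe sets and Socs2 fell.

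Of other STAT5 targets, 9 of 10 were measured, with 2 higher and 2 lower of 9 at lactation day 7 against virgin week 12 (median 0.03), a share of calls near the 51.6% of all probe sets called. Akt1, a survival kinase, rose by 2.29 ± 0.32 (adjusted p 1.18e-07) and Pim1, a kinase gene induced by STAT5, by 1.30 ± 0.29 (adjusted p 0.000253), while Igf1 was -1.91 ± 0.33 (adjusted p 4.6e-06) and Bcl6, which STAT5 represses, -1.52 ± 0.38 (adjusted p 0.000871). At involution day 1 against lactation day 7, 2 rose and 4 fell. Cdkn1a, a cell cycle inhibitor, rose by 3.57 ± 0.49 (adjusted p 2.34e-07), and Akt1 (-1.85 ± 0.32, adjusted p 2e-05), Pim1 (-1.67 ± 0.29, adjusted p 2e-05) and Ccnd1 (-1.46 ± 0.26, adjusted p 2.92e-05) fell.

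Tnfsf11, which encodes RANKL, a paracrine signal for alveolar growth, gave 122, 118 and 162 at pregnancy day 3 and 4.7, 3.8 and 5.8 at virgin week 12, a difference of 3.82 ± 0.44 (adjusted p 1.94e-07). All 3 glands of pregnancy day 3 lay above those of virgin week 12. The virgin week 12 arrays were all under the floor, so the size of this difference depends on it, and it ran from 2.54 to 4.82 over the alternatives. Socs2 was called in the same step, where 4.24% of all probe sets were, but its call was lost on leaving out most of the arrays compared. At lactation day 1 against pregnancy day 17.5, where 23.3% of all probe sets were called, Tnfsf11 was -1.79 ± 0.44 (adjusted p 0.00232). With the floor at the 40th percentile this was -0.64 (adjusted p 0.0677) and with no floor -2.62 (adjusted p 0.0591), neither of them called. Socs2 was also called in that step, a call lost on leaving out some of the arrays. A link between Socs2 and Tnfsf11 was not tested. In that step the milk genes Csn1s2b and Lalba rose by 4.62 ± 0.44 (adjusted p 4.78e-10) and 3.02 ± 0.72 (adjusted p 0.00176).

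**Figure D5:**
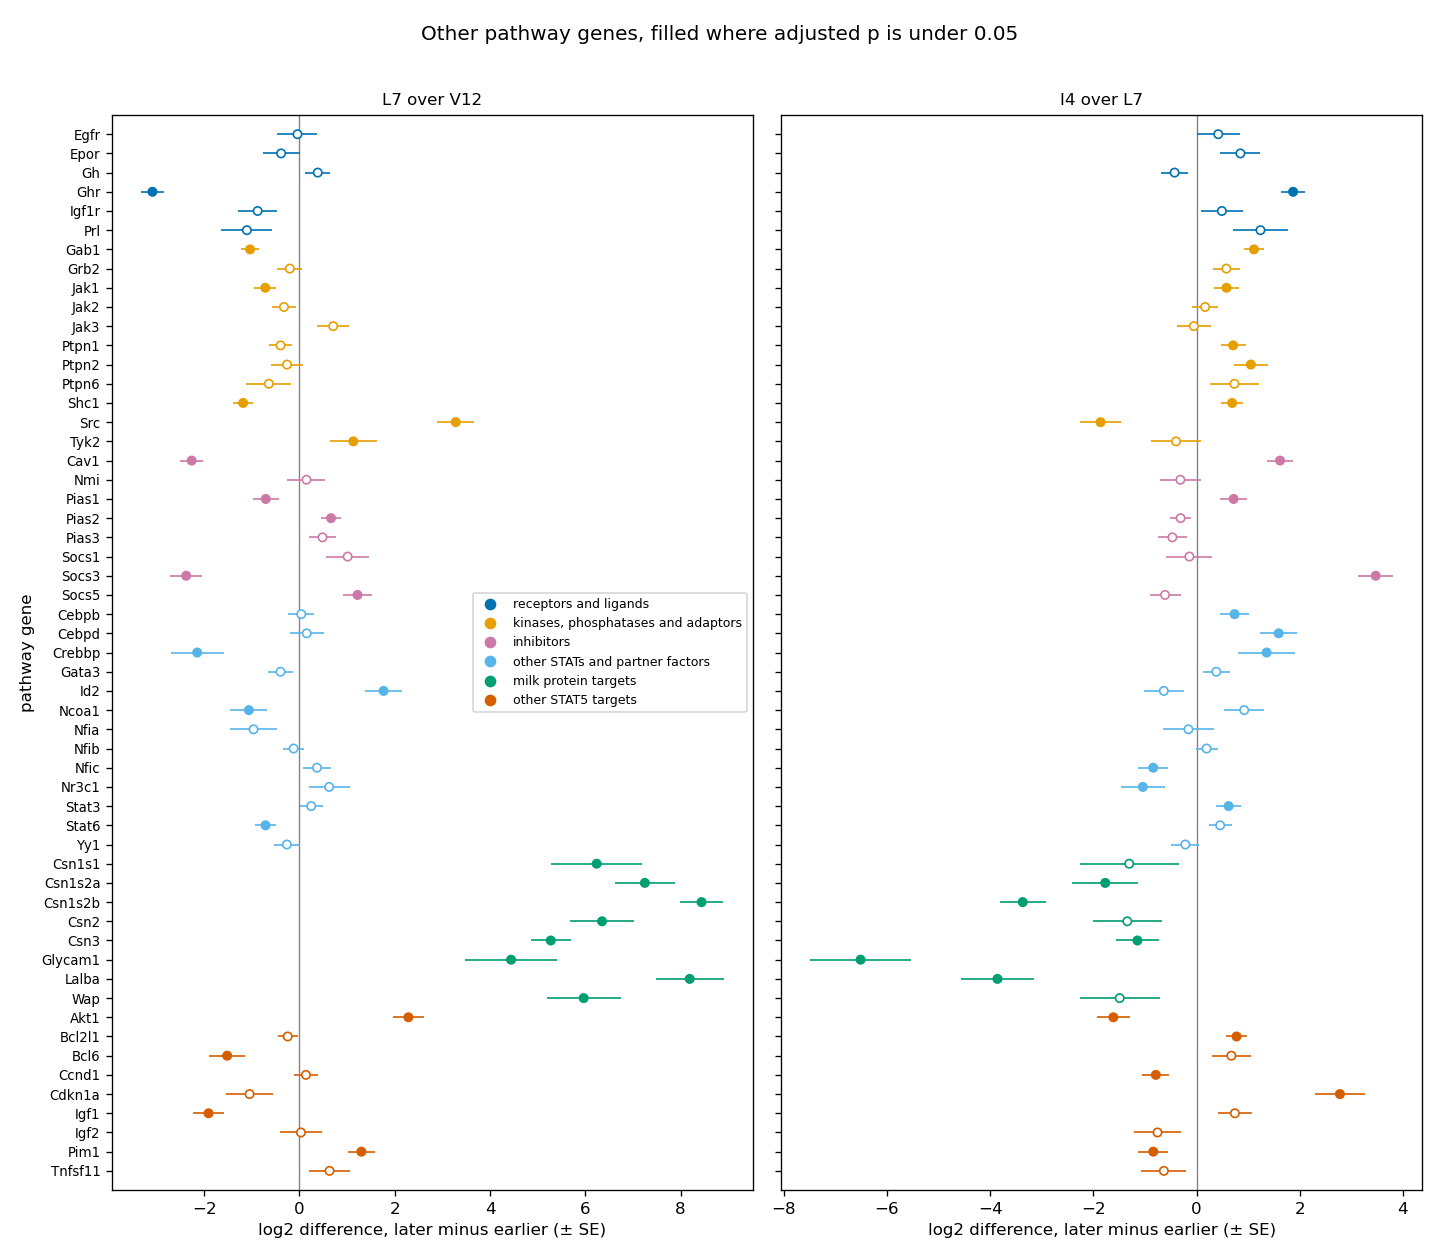
Log2 differences (± SE) of the measured pathway genes for lactation day 7 over virgin week 12 (left) and involution day 4 over lactation day 7 (right), with points filled where the adjusted p was under 0.05. All 8 milk protein genes lie far right on the left panel, and 5 are called lower on the right panel.

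The genes most like each member were found by Pearson r over the 18 stage means of log2 signal, as a description. For Elf5 they were Timd2 (r 0.97), Csn1s2a (0.96), Plet1 (0.96), Vdr (0.96) and Traf4 (0.96). For Stat5a on the first probe set they were Eif3d (0.86), Sec31a (0.83), Tnk2 (0.80), Polr1e (0.80) and Rangap1 (0.80). Stat5b was nearest to Sgip1 (0.91), Pim1 on another of its probe sets (0.88), Trabd (0.88), Zfp771 (0.88) and St6gal1 (0.88). Socs2 was nearest to Mal (0.93), Dap3 (0.92), Dag1 (0.92), Arrb1 (0.92) and Hars (0.92), and Cish to Ddx54 (0.92), Ifrd2 (0.91), Kcnn4 (0.90), Crabp2 (0.90) and Tmpo (0.90). Between members r was 0.89 for Cish with Stat5a on the second probe set, 0.58 for Elf5 with Stat5b and -0.58 for Elf5 with Socs2. Elf5 correlated at 0.93 with Csn2 and 0.91 with Wap. All points share the same glands and array scaling.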

How the data were processed

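Signals of 54 Affymetrix arrays were used as deposited: per the submitters' processing notes the authors computed them with MAS5 (version not given in the sources used here), and the deposited intensities are linear signals with each array scaled to a 2% trimmed mean of 99.9762 to 99.9832, as the values show. Per the labels' protocols, biotin-labelled cRNA was made from total RNA of 1 gland per mouse. Genome builds are not used by the signals.

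A floor of 9.4 (25th percentile of all values) was applied before log2. Of 12488 probe sets, 66 controls were left out, and 8640 with a signal over 22.8 (40th percentile) on all 3 arrays of at least 1 stage were kept. Names came from the platform annotation: 10833 probe sets had 1 symbol, 396 several and 1193 none. limma 3.58.1 (R 4.3.3) was fitted to all 54 arrays with 1 mean per stage and an intensity trend (residual df 36), with Benjamini-Hochberg adjustment over the 8640 for each of 14 comparisons, and checked on simulated data. Within-array ratios were tested by exact permutation (Python 3.11.15). Where a gene had several probe sets, the brightest by mean log2 represented it in the lists. Named list genes were the called ones with the largest differences, up to 4 per list and comparison, with Prlr, Jak2, Csn2 and Wap always given where measured. Promoter windows are RefSeq's, build GRCm38.p6. Alternatives changed the floor, scaling, filter, variance model, block, covariate and arrays. The members and lists were chosen with earlier results of these data known. Each stage has 3 mice, which limits the precision.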

Additional observations from a re-analysis of the deposited data

How the results depend on the processing

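Of the 22 member calls, 7 held in every alternative, and no call was turned round in direction. Calls numbered 20 with no floor, 26 with the floor at the 40th percentile, 23 after quantile normalization, 18 after median scaling, 19 with no filter, 17 with 1 probe set per gene, 19 with no intensity trend, 32 with array quality weights, 26 with a beta-actin covariate, 15 with only the arrays compared in the fit, and 16 to 29 on leaving out 1 array. The F test called all 6 probe sets in each alternative run, except 5 of 5 with 1 probe set per gene. With the letter as a replicate block 23 were called. Over 459 same-letter pairs the correlation of deviations from the stage mean had a median of 0.013 (-0.496 to 0.417), with 66 over 0.1. Pairs of other letters had a median of -0.006. A batch shared by some same-letter arrays was not tested.

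Counts over all probe sets moved by more than 1.5 times in these cases. The floor at the 40th percentile gave 58 against 36 for pregnancy day 17.5 over day 14.5. Array quality weights gave 925 against 366 for pregnancy day 3 over virgin week 12, 3051 against 1543 for pregnancy day 8.5 over day 3, 1590 against 313 for pregnancy day 14.5 over day 8.5, 342 against 36 for pregnancy day 17.5 over day 14.5, 1428 against 660 for involution day 2 over involution day 1, 1102 against 544 for involution day 4 over involution day 2, 2191 against 1342 for involution day 20 over involution day 4, 627 against 228 for involution day 20 over virgin week 12. The beta-actin covariate gave 349 against 2571 for virgin week 12 over week 6, 631 against 366 for pregnancy day 3 over virgin week 12, 472 against 313 for pregnancy day 14.5 over day 8.5. A fit to the arrays compared gave 9 against 1543 for pregnancy day 8.5 over day 3, 104 against 313 for pregnancy day 14.5 over day 8.5, 0 against 36 for pregnancy day 17.5 over day 14.5, 620 against 2011 for lactation day 1 over pregnancy day 17.5, 64 against 457 for lactation day 7 over lactation day 1, 305 against 660 for involution day 2 over involution day 1, 482 against 1342 for involution day 20 over involution day 4, 129 against 228 for involution day 20 over virgin week 12. The share of calls that were higher, with the main share in brackets, moved under median scaling to 34.3% (against 57.9%) for virgin week 12 over week 6, 47.0% (against 63.4%) for pregnancy day 3 over virgin week 12, 81.4% (against 30.2%) for pregnancy day 8.5 over day 3, 56.3% (against 45.0%) for involution day 20 over involution day 4, 65.7% (against 48.2%) for involution day 20 over virgin week 12, and under quantile normalization to 49.4% (against 30.2%) for pregnancy day 8.5 over day 3. The median of all probe sets shifted by -0.20 (virgin week 12 over week 6), 0.33 (pregnancy day 8.5 over day 3), 0.11 (involution day 20 over involution day 4), 0.14 (involution day 20 over virgin week 12) under median scaling and by -0.11 (virgin week 12 over week 6), 0.16 (pregnancy day 8.5 over day 3) under quantile normalization.

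The 8 ratio changes that passed the test kept their sign and call in every alternative but one. With stage means in place of arrays the values were -1.72 and 1.46 for Stat5a minus Stat5b, -2.45 and 1.05 for Socs2 minus Cish, and 4.25, 1.67, -1.38 and 1.07 for Elf5, Stat5b, Socs2 and Cish minus the luminal markers, each at an adjusted p of 0.129, since 3 or 4 means a phase cannot pass. Stat5a minus the luminal markers was 0.338 with Krt8 and Krt18 alone as markers (adjusted p 0.0954), 0.323 with the other Stat5a probe set (0.104), and -0.115 to 0.0141 on leaving out 1 array, and it was not called in any of these. The cause was not tested. On leaving out 1 array the called changes ran -1.88 to -1.46 for Stat5a minus Stat5b (lactation against virgin), 1.28 to 1.57 for Stat5a minus Stat5b (involution days 1 to 4 against lactation), -2.56 to -2.35 for Socs2 minus Cish (lactation against virgin), 0.91 to 1.16 for Socs2 minus Cish (involution days 1 to 4 against lactation), 4.14 to 4.43 for Elf5 minus luminal markers (lactation against virgin), 1.36 to 1.80 for Stat5b minus luminal markers (lactation against virgin), -1.49 to -1.25 for Socs2 minus luminal markers (lactation against virgin), 0.93 to 1.17 for Cish minus luminal markers (lactation against virgin). Of 109 calls among pathway genes, 56 held in every alternative, 48 were lost on leaving out some 1 array, and none reversed. At involution day 4 over lactation day 7, Csn1s2a and Csn3 were lost after quantile normalization (adjusted p 0.333 and 0.816). The median SE was 0.305 on the log2 scale, and Stat5b near the floor is the least precise member.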
